A study of Mus musculus with 6 samples.

Results

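Tslp and the genes of the interleukin 1 (IL-1) system were followed in mouse primary prostate cell cultures with and without the retinoblastoma gene Rb. The members are 10 genes, named by symbol: the cytokines Tslp, Il33, Il18, Il1a and Il1b, the antagonist Il1rn, the receptor chains Il1r1, Il1rl1 and Il1rap, and the growth factor gene Csf2. Of these, 7 were tested, among 13716 named genes in all, and Il1a, Il1b and Il1rn were not well above background on any of the 6 arrays.

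All cells were p53-/- and carried the floxed allele Rbf/f. In the Rb deleted group (p53-/- Rb∆f/∆f, 3 arrays) an adenovirus carrying Cre had been added overnight, and in the Rb intact group (p53-/- Rbf/f, 3 arrays) an adenovirus carrying lacZ. The cells grew without serum in Prostacult medium with bFGF and an additive the labels call bEGF, and RNA was taken at 48 hours. The labels give neither the age of the mice nor whether the 3 experiments used separate animals, so p-values measure the spread between these cultures. Cre virus was used in Rb deleted cultures and in no other, so the virus and the loss of Rb cannot be told apart.

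The alarmins are cytokines that barrier and stromal cells release on damage or stress. Those of the IL-1 family bind a receptor chain of their own that pairs with an accessory chain, encoded by Il1rap for IL-1 and IL-33 and by Il18rap for IL-18, and signal through MyD88 and the IRAK kinases to NF-kB. Tslp is unrelated in structure: it binds Crlf2 paired with Il7r and signals through JAK kinases and STAT5. Its best known sources are epithelial cells and fibroblasts, and its best known targets are dendritic cells, mast cells and type 2 lymphocytes.

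Levels are log2 spot intensities relative to the 75th percentile of the same array, so that 0 is the 75th percentile, and SDs are over the 3 arrays of a group. Differences are Rb deleted minus Rb intact, with the standard error (SE) and adjusted p from limma over all tested genes, and a gene was called at an adjusted p under 0.05. The share of spots well above background lay between 59.7% and 64.0%, and no spot was saturated. Correlations over probes were 0.9928 to 0.9982 within groups and 0.9867 to 0.9921 between them. Rb1, the targeted gene, read -3.13, -3.12 and -3.07 in Rb deleted cultures 1, 2 and 3, against -1.15, -1.14 and -1.17 in Rb intact cultures 1, 2 and 3, a fall to 25.7% of the intact level (limma adjusted p = 8.235e-05). Rb deleted 1 shared a slide with the 3 Rb intact arrays, here called the first slide, while Rb deleted 2 and 3 were on another. Calls are therefore also given with the slide in the fit where that ends them.

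The markers were checked against the label of prostate cells. The luminal prostate gene Pbsn was well above background on 1 of 6 arrays, and the basal keratin gene Krt5 on 3 of 6. The fibroblast markers were all detected, 6 of 6, with a summed linear level of 266.1 to 280.7 in Rb deleted cultures and 266.4 to 288.2 in Rb intact cultures; 0 of the 6 were called higher and 1, Lum, lower (-0.40 ± 0.07, SE, limma adjusted p = 0.00888), a call lost within the first slide (-0.49, limma adjusted p = 0.165). The brightest marker, Dcn, which encodes the matrix proteoglycan decorin, lay between 6.67 and 6.73 in Rb deleted cultures and between 6.50 and 6.72 in Rb intact cultures. The epithelial keratin gene Krt18 read 3.18 to 3.39 in Rb deleted cultures and 3.40 to 3.57 in Rb intact cultures. Among the basal markers, Itga6, an integrin chain, had a difference of -0.58 ± 0.08 (SE, limma adjusted p = 0.00516) and Trp63, the basal lineage factor, by -0.26 ± 0.07 (SE, limma adjusted p = 0.0441). Both calls were lost with the slide as a block, at -0.58 for Itga6 (limma adjusted p = 0.0745) and -0.18 for Trp63 (limma adjusted p = 0.386), and that of Trp63 also without any single array other than Rb intact 1 (limma adjusted p = 0.0606 to 0.150). The summed level of the basal markers was 20.73 to 21.35 in Rb deleted cultures and 28.55 to 34.29 in Rb intact cultures. Most of that sum was Itga6, the brightest of them. The dim basal keratin gene Krt14, at -5.14 to -4.68 in Rb deleted cultures and -5.17 to -4.94 in Rb intact cultures, was not called (0.06 ± 0.14, SE, limma adjusted p = 0.769). Of 8 macrophage and pan-leukocyte markers, Itgam, Csf1r and Fcer1g were well above background on 6 of 6 arrays and Adgre1 on 4, Ptprc, Tyrobp and Laptm5 were on none, and 1 had no named probe. Of 5 mast cell and basophil markers, Tpsb2 was well above background on 6 of 6 arrays, at -4.27 to -3.61 in Rb deleted cultures and -5.25 to -3.87 in Rb intact cultures, Kit on 1, and Cpa3, Fcer1a and Mcpt4 on none. Of 5 T and NK cell markers, Cd4, Cd3e and Nkg7 were well above background on 6 of 6 arrays and Cd3g and Cd8a on none; the brightest, Cd4, lay between 0.04 and 0.69 in Rb deleted cultures and between -0.40 and 0.30 in Rb intact cultures. In limma 0 of the tested genes of these 3 lists were called, and at an unadjusted p under 0.05 there was 1, Nkg7, which was higher. Of 5 endothelial markers 4 were tested. Kdr, the brightest, lay between 0.60 and 1.02 in Rb deleted cultures and between 0.84 and 1.00 in Rb intact cultures. Vwf was called lower (-0.97 ± 0.18, SE, limma adjusted p = 0.0141). It was well above background on 3 of 3 Rb intact arrays but on 1 of 3 Rb deleted arrays, so the size of its difference rests partly on values at background. The other 3 tested were not called, with differences of 0.28 for Pecam1, -0.13 for Cdh5 and -0.10 for Kdr. The part of these cell types in the members' values was not tested.

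Of the 7 tested members, 2 rose in Rb deleted cultures (Tslp and Il1rl1), 1 fell (Il33) and 4 were not called. That is 42.9% of the tested members, beside 20.3% of all tested genes (9.46% called higher and 10.8% called lower). Their median difference was -0.17, against 0.01 over all tested genes. In 6 of the 7 the groups did not overlap, 2 higher and 4 lower, where 45.2% of all tested genes had groups that did not overlap (23.3% higher and 21.9% lower).

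**Figure D1:**
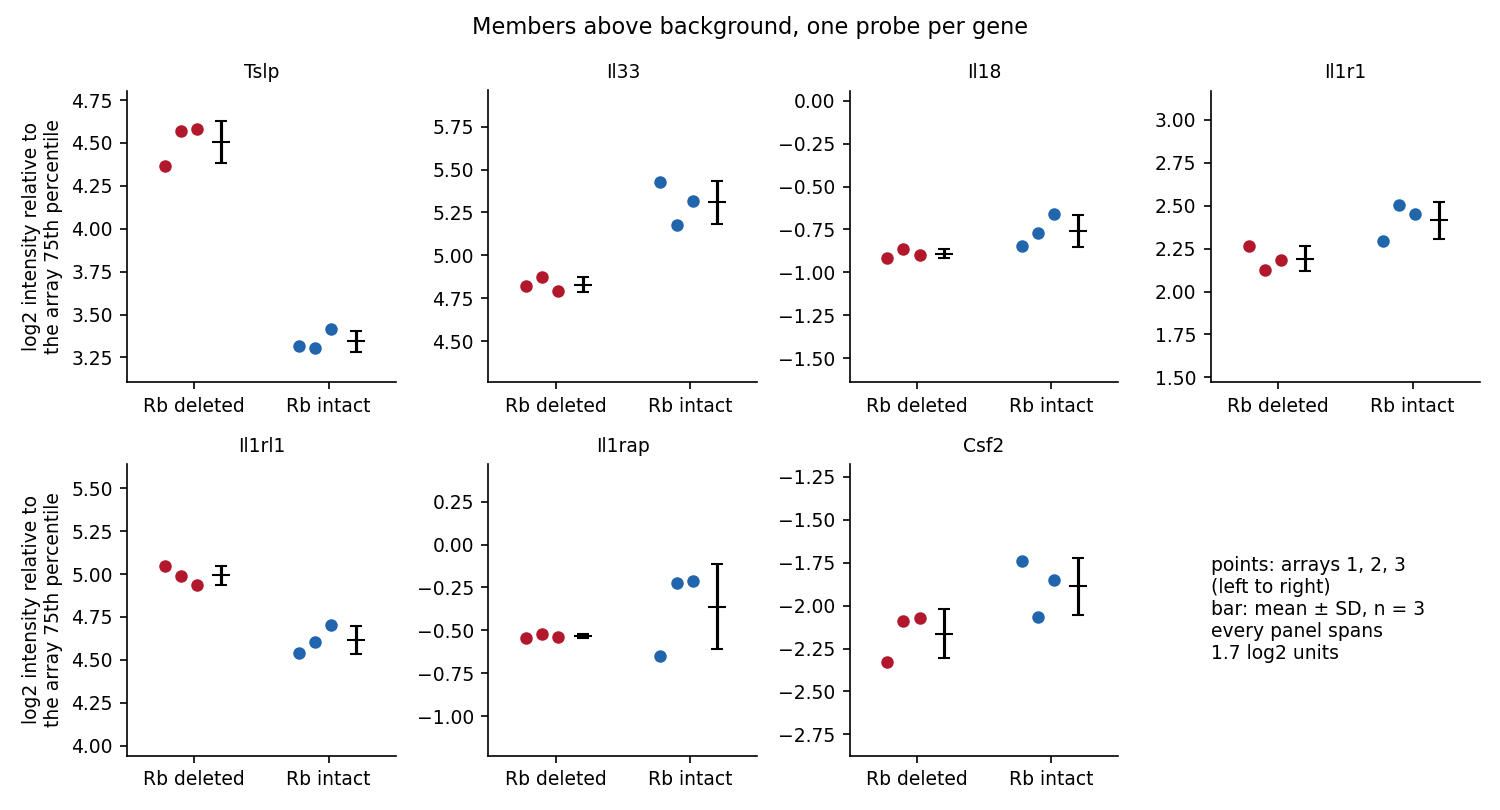
Level of each tested member on every array, as log2 intensity with 0 at the 75th percentile of that array, Rb deleted (red) left of Rb intact (blue), with the mean and SD of the 3 arrays as bars. Tslp lies at 4.37 to 4.58 in Rb deleted cultures and at 3.30 to 3.41 in Rb intact cultures, the widest gap of the 7, and Il1rap is the one member whose groups overlap.

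Tslp, which encodes thymic stromal lymphopoietin, had the largest difference of the 7. The gene lies on chromosome 18 and is read by 1 probe (A_51_P463003, transcript NM_021367). It read 4.37, 4.57 and 4.58 in Rb deleted cultures 1, 2 and 3, against 3.32, 3.30 and 3.41 in Rb intact cultures 1, 2 and 3. Every Rb deleted array was above every Rb intact array, and the spread within each group was small beside the gap. Before scaling, the spot intensities were 82839, 89981 and 102410 in Rb deleted cultures, against 35183, 41219 and 41550 in Rb intact cultures. The means were 4.51 ± 0.12 in Rb deleted cultures and 3.35 ± 0.06 in Rb intact cultures (SD, n = 3 each), a difference of 1.16 ± 0.08 (SE), or 2.24-fold (limma adjusted p = 0.000437). The size of this difference was larger than that of 98.5% of tested genes. In bulk RNA, more cells of a type and more RNA per cell cannot be told apart. With the slide as a block the difference was 1.02 (limma adjusted p = 0.00916), and among the 4 arrays of the first slide, it was 1.02 (limma adjusted p = 0.0458), with the lone Rb deleted array assumed to vary like the others.

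The receptor chains for Tslp were not called. Crlf2, its specific chain, read 2.54, 2.55 and 2.49 in Rb deleted cultures, against 2.65, 2.71 and 2.81 in Rb intact cultures. All Rb deleted arrays were below all Rb intact arrays, and the difference of -0.19 ± 0.06 (SE) was not called (limma adjusted p = 0.0757). The partner chain Il7r was not well above background on any array.

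Il33, an alarmin stored in the nucleus of barrier and stromal cells and released when they are damaged, went the other way. Its probe (A_55_P1964960, NM_001164724) read 4.82, 4.87 and 4.79 in Rb deleted cultures, against 5.43, 5.18 and 5.32 in Rb intact cultures. The Rb deleted arrays lay close together and below all Rb intact arrays. The means were 4.83 ± 0.04 in Rb deleted cultures and 5.31 ± 0.13 in Rb intact cultures (SD, n = 3 each). Il33 therefore fell to 71.7% of the intact level, a difference of -0.48 ± 0.08 (SE, limma adjusted p = 0.00853). With the slide as a block the difference was the same size, -0.49, but no longer called (limma adjusted p = 0.0979), and the same held within the first slide (limma adjusted p = 0.241).

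Il18, whose product is activated by caspase-1 and acts on lymphocytes, was not called. Its probe read -0.91, -0.86 and -0.90 in Rb deleted cultures, against -0.85, -0.77 and -0.66 in Rb intact cultures. The groups nearly met without overlapping. The difference of -0.13 ± 0.06 (SE) was not called (limma adjusted p = 0.200), but without Rb intact 1 it was -0.18 and called (limma adjusted p = 0.0410). Without Rb intact 3 it was -0.08 (limma adjusted p = 0.427), and with normexp background correction -0.04 (limma adjusted p = 0.767).

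The classical IL-1 ligands were not detected. Il1a and Il1b encode the cytokines IL-1 alpha and IL-1 beta, and Il1rn the antagonist that occupies their receptor without signalling. The Il1a probe read -8.33, -8.84 and -8.57 in Rb deleted cultures, against -7.92, -8.34 and -8.33 in Rb intact cultures. Il1b, spotted 10 times on each array, read -8.08, -8.61 and -8.33 in Rb deleted cultures, against -8.22, -8.08 and -8.08 in Rb intact cultures. Il1rn read -8.13, -6.56 and -7.36 in Rb deleted cultures, against -7.40, -7.41 and -8.05 in Rb intact cultures. These values were not well above background, the lowest signal that was so being -6.03, -6.55 and -6.27 on the Rb deleted arrays and -6.36, -6.03 and -5.99 on the Rb intact arrays. No fold is given for the 3 genes, and a difference between groups below these levels was not detectable here.

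Il1r1, the signalling receptor for IL-1 alpha and IL-1 beta, was detected where its ligands were not. It read 2.27, 2.12 and 2.18 in Rb deleted cultures, against 2.30, 2.50 and 2.45 in Rb intact cultures. Rb intact 1 lay just above the highest Rb deleted array, and the other two Rb intact arrays were clearly higher. The difference was -0.22 ± 0.08 (SE) and was not called (limma adjusted p = 0.0858). Without Rb intact 1 it was -0.29 and called (limma adjusted p = 0.0151), and with the slide as a block it was -0.15 (limma adjusted p = 0.536).

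Il1rap, the chain shared by the receptors for IL-1 and for IL-33, was the member whose call rested most on 1 array. Its brighter probe (A_52_P467232, NM_134103) read -0.54, -0.52 and -0.54 in Rb deleted cultures, against -0.65, -0.22 and -0.21 in Rb intact cultures. Rb intact 1 was below all Rb deleted arrays and the other two Rb intact arrays were above them. The difference was -0.17 ± 0.12 (SE, limma adjusted p = 0.363) over the 6 arrays and -0.32 without Rb intact 1, where it was called (limma adjusted p = 0.00295). Without Rb intact 2 or Rb intact 3 it was -0.10 each (limma adjusted p = 0.628 and 0.640). The second probe (A_55_P2041422, NM_008364) gave -0.20 ± 0.10 (SE, limma adjusted p = 0.219 over probes), and there Rb intact 1 was the highest array, at -1.35. Rb intact 1 was also low in the leukocyte marker Itgam, an integrin chain of myeloid cells, at 0.73 against 2.40 and 2.43 in Rb intact 2 and 3, with 1.83, 1.62 and 1.60 in Rb deleted cultures. The summed level of the leukocyte markers was 3.894 to 4.453 in Rb deleted cultures and 2.389 to 6.381 in Rb intact cultures. Itgam was the brightest of them and made up most of that sum. These Itgam values are from 1 of its 3 probes, the brightest. The Itgam difference was -0.17 at this probe and 0.22 with the mean of its passing probes, neither called (limma adjusted p = 0.819 and 0.303). Without Rb intact 1 the difference at this probe was -0.73 and called lower (limma adjusted p = 0.00323). The part of the leukocyte markers in the Il1rap values was not tested.

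Csf2, which encodes the growth factor GM-CSF and is a known target of IL-1, was the last tested member. It was spotted 10 times on each array, and 2 outlier spots over all arrays were left out. The spots averaged to -2.33, -2.09 and -2.07 in Rb deleted cultures, against -1.74, -2.07 and -1.85 in Rb intact cultures. The highest Rb deleted and the lowest Rb intact array nearly met. The difference of -0.28 ± 0.11 (SE) was not called (limma adjusted p = 0.133). With the slide as a block it was -0.44 (limma adjusted p = 0.173), and its adjusted p lay between 0.0556 and 0.351 over all settings tried.

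**Figure D2:**
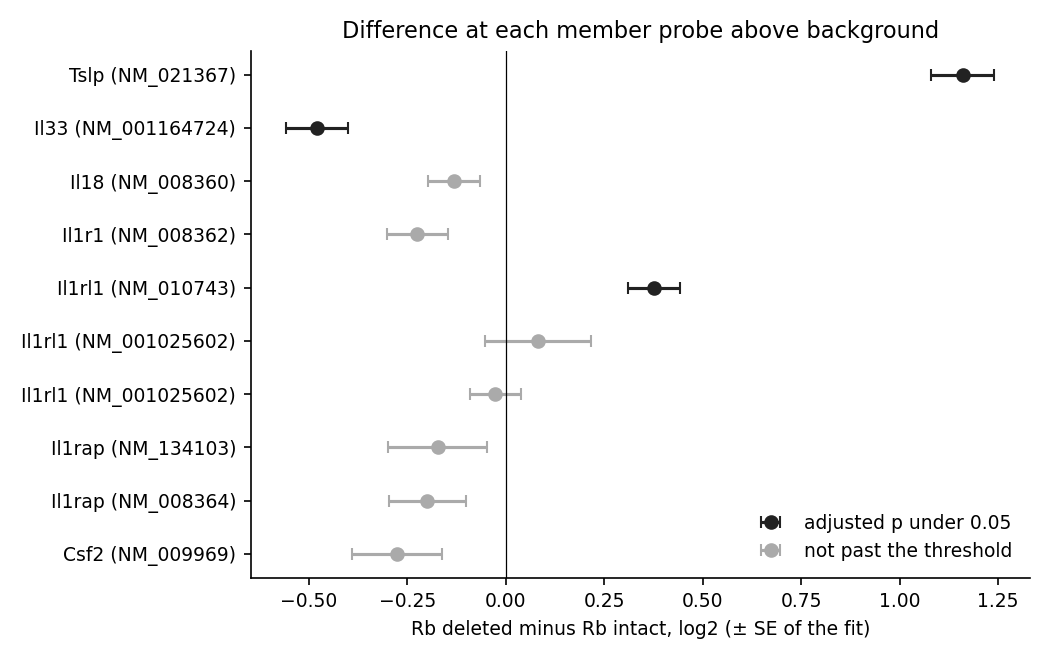
Difference, Rb deleted minus Rb intact in log2 units with the SE of the fit, at each of the 10 member probes above background; dark points have a limma adjusted p under 0.05 over all probes. Tslp at 1.16, Il33 at -0.48 and the NM_010743 probe of Il1rl1 at 0.38 are dark, and both NM_001025602 probes of Il1rl1 lie near 0.

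At the level of single probes, 3 of the 10 member probes were called, beside 15.7% of all probes. Il1rl1 encodes ST2, the receptor for IL-33, in a membrane form that signals and a shorter secreted form that binds IL-33 as a decoy. The array has 3 probes for it. A_51_P339793 is annotated to NM_010743, the transcript of the secreted form, and A_55_P2027737 and A_55_P2027731 to NM_001025602, the transcript of the membrane form. Where each probe lies in these transcripts, which share most of their exons, was not examined. The gene has separate upstream and downstream first exons, and in mouse the upstream start is known for mast cells and other blood cells and the downstream one for fibroblasts. The RefSeq promoter windows (build GRCm38.p6, 250 bases before to 50 after each start, plus strand, 5′ to 3′) of these 2 starts are shown because the gene was called at 1 of its 3 probes. Those of the 2 Il33 starts are shown because Il33, the ligand, moved the other way. The windows were not tied to the probes.
Il1rl1 upstream, chr1:40429320-40429619: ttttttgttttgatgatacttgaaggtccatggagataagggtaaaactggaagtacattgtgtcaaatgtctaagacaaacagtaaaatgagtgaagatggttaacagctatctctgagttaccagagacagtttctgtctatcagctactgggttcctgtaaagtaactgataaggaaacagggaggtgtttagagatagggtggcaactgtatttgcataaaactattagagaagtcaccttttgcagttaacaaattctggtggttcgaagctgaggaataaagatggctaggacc
Il1rl1 downstream, chr1:40439379-40439678: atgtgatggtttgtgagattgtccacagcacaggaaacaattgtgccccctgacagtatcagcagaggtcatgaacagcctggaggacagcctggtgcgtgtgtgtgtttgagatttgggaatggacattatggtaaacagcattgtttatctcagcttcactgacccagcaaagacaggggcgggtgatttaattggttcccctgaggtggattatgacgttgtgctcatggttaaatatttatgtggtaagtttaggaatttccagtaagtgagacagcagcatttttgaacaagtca
Il33 upstream, chr19:29924863-29925162: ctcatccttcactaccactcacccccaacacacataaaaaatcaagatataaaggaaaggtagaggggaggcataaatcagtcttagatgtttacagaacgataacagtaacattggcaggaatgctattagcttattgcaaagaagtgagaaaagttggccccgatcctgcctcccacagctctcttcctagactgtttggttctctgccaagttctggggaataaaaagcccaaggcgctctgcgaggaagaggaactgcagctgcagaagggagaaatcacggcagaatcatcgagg
Il33 downstream, chr19:29945540-29945839: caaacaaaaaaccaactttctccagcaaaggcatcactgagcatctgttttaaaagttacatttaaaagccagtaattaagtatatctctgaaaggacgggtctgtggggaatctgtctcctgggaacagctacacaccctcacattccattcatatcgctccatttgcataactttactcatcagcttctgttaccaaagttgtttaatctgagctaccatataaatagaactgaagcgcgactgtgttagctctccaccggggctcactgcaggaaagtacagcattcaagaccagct
No letters are in capitals because none of the 3 motifs searched on both strands is in these 4 windows. The motifs were TGANTCA for AP-1, GGGNNTTTCC for NF-kB and TTTNNCGC for E2F, the family that Rb restrains, and they are in 7.81%, 1.63% and 5.17% of 32851 RefSeq mouse promoter windows of the same length. Over the 14 windows of 9 members, all but Tslp, AP-1 letters were in 2 (1 of Il1a and 1 of Il1rn). NF-kB and E2F letters were in the same 2 overlapping windows of Il1rn, where they overlap each other. Tslp was left out of this search of the members, so whether its promoter holds any of the motifs was not tested.

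The NM_010743 probe of Il1rl1 read 5.05, 4.99 and 4.94 in Rb deleted cultures, against 4.54, 4.60 and 4.70 in Rb intact cultures. The groups were apart by more than the spread in either. The means were 4.99 ± 0.05 in Rb deleted cultures and 4.62 ± 0.08 in Rb intact cultures (SD, n = 3 each), a difference of 0.38 ± 0.06 (SE), or 1.30-fold (limma adjusted p = 0.0111). This call did not hold with the slide as a block (0.43, limma adjusted p = 0.0771), within the first slide (0.43, limma adjusted p = 0.225) or without Rb deleted 2 (0.38, limma adjusted p = 0.0550). It was also lost when the 3 probes were averaged (0.14, limma adjusted p = 0.216).

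At both probes of the membrane transcript the difference was smaller than its SE. A_55_P2027737 read 3.87, 3.78 and 3.73 in Rb deleted cultures, against 3.88, 3.78 and 3.81 in Rb intact cultures, with a difference of -0.03 ± 0.06 (SE, limma adjusted p = 0.800 over probes). The much dimmer A_55_P2027731 read -1.08, -1.12 and -1.40 in Rb deleted cultures, against -1.45, -1.34 and -1.06 in Rb intact cultures. Its difference was 0.08 ± 0.13 (SE, limma adjusted p = 0.705 over probes). These 2 probes share an annotated transcript but lay far apart in level, and which forms each reads was not tested. For these probes the groups overlapped.

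Taking A_51_P339793 minus A_55_P2027737 within each array gave 1.17, 1.21 and 1.21 in Rb deleted cultures, against 0.66, 0.83 and 0.89 in Rb intact cultures. All 3 Rb deleted arrays had the larger difference, by 0.40 ± 0.08 (SE). The same comparison of the 2 brightest probes was run over 3533 genes, of which 0.142% were called, and Il1rl1 was not among them (limma unadjusted p = 0.00255, adjusted p = 0.146). An exact two-sided permutation test gave p = 0.1, the smallest that 3 against 3 allows. The comparison was added after the probe values had been seen.

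**Figure D3:**
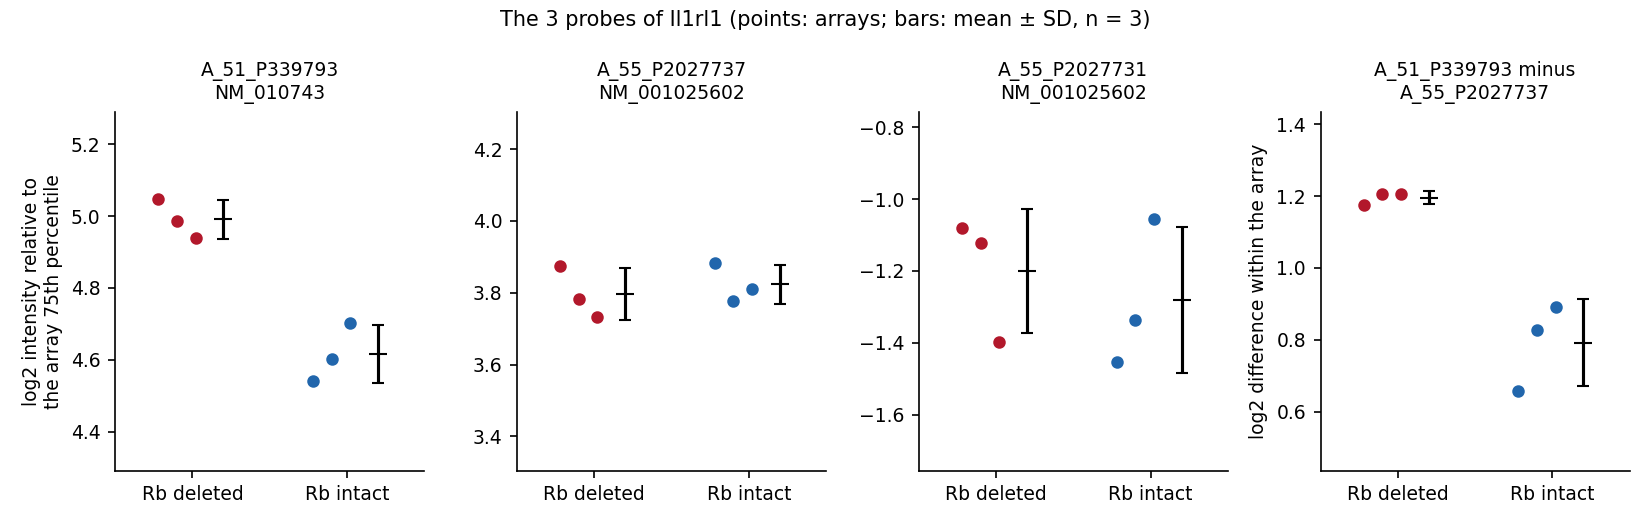
The 3 Il1rl1 probes on every array, as log2 intensity with 0 at the 75th percentile of that array, and at the right the first minus the second within each array; bars are the mean and SD of 3 arrays. The NM_010743 probe lies at 4.94 to 5.05 in Rb deleted cultures and at 4.54 to 4.70 in Rb intact cultures, while the groups overlap for both NM_001025602 probes.

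The rest of the pathway was read from 6 lists of 76 other genes, of which 59 were tested; 4 rose and 10 fell, 23.7% of those tested beside 20.3% of all tested genes, with a median difference of 0.01. Among 5 other IL-1 family ligands, Il1f6 was the one detected. This gene, now also called Il36a, encodes the epithelial cytokine IL-36 alpha and fell. It read -4.71, -4.73 and -4.92 in Rb deleted cultures, against -3.27, -3.04 and -2.92 in Rb intact cultures, a difference of -1.71 ± 0.11 (SE, limma adjusted p = 0.000372), to 30.5% of the intact level. The fall was also called within the first slide (-1.64, limma adjusted p = 0.0446).

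Of 13 other receptors and decoys, 9 were tested, 1 rose and 1 fell. Il1r2 encodes the decoy that binds IL-1 without signalling, and read -1.73, -1.75 and -1.74 in Rb deleted cultures, against -0.86, -1.18 and -1.22 in Rb intact cultures. It fell by 0.65 ± 0.10 (SE, limma adjusted p = 0.00774), and the call was lost with the slide as a block (-0.64, limma adjusted p = 0.0973). Il18rap, the accessory chain of the IL-18 receptor, rose by 0.25 ± 0.07 (SE, limma adjusted p = 0.0425). That call was lost with the slide as a block (0.28, limma adjusted p = 0.222) and without any single array other than Rb intact 1 (limma adjusted p = 0.0726 to 0.157).

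All 18 signalling genes were tested, and 2 rose. Jak2, a kinase used by the receptors for Tslp and GM-CSF, read 2.01, 2.01 and 1.92 in Rb deleted cultures, against 1.55, 1.57 and 1.67 in Rb intact cultures, a difference of 0.38 ± 0.06 (SE, limma adjusted p = 0.00842). With the slide as a block it was 0.41 (limma adjusted p = 0.0855). Chuk, a subunit of the kinase that frees NF-kB, rose by 0.19 ± 0.05 (SE, limma adjusted p = 0.0477), a call lost with the slide as a block (0.15, limma adjusted p = 0.367) and without any single array other than Rb intact 1 (limma adjusted p = 0.0919 to 0.178). Jak1, the brightest of the list, differed by 0.04 ± 0.10 (SE, limma adjusted p = 0.793). In limma, 0 of these genes were called lower (1 at an unadjusted p under 0.05), and without Rb intact 1 the list had 5 calls higher and 1 lower.

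For processing and release of the cytokines, 12 of 17 genes were tested and 1 fell. Casp1 encodes the protease that matures IL-1 beta and IL-18, and read -2.76, -2.73 and -2.76 in Rb deleted cultures, against -2.25, -2.01 and -2.04 in Rb intact cultures. It fell by 0.65 ± 0.08 (SE, limma adjusted p = 0.00308) and remained called with the slide as a block (-0.66, limma adjusted p = 0.0494), but not within the first slide (-0.66, limma adjusted p = 0.160). Nlrp3, the inflammasome sensor, was well above background on all 3 Rb deleted arrays and on 0 of 3 Rb intact arrays, and was not called (limma adjusted p = 0.0524). It passed the filter through the Rb deleted group alone. The bound on its fold was 1.49, from Rb deleted values of -5.76 to -5.19, not far above the lowest signal well above background, and no rise is read from it. Means for this gene were -5.55 in Rb deleted cultures and -6.81 in Rb intact cultures. Capn2, the brightest of the list and a calpain, differed by -0.10 ± 0.10 (SE, limma adjusted p = 0.514). Without Rb intact 1 the list had 2 calls higher and 3 lower.

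Among 19 genes that IL-1 is known to induce, 17 were tested, with 6 lower, 1 higher and 10 not called. Of all tested genes, 10.8% were called lower and 9.46% higher. Saa3, an acute phase protein gene, read 5.88, 5.89 and 5.85 in Rb deleted cultures, against 6.47, 6.50 and 6.65 in Rb intact cultures, and fell by 0.67 ± 0.06 (SE, limma adjusted p = 0.00158). Mmp9, a gelatinase gene, fell by 1.03 ± 0.14 (SE, limma adjusted p = 0.00445) and Csf3, which encodes the granulocyte growth factor G-CSF, by 0.74 ± 0.10 (SE, limma adjusted p = 0.00493). Tnfaip3, an inhibitor of NF-kB signalling, fell by 0.54 ± 0.09 (SE, limma adjusted p = 0.0107) and the neutrophil chemokine gene Cxcl1 by 0.45 ± 0.10 (SE, limma adjusted p = 0.0234). Lcn2, which encodes a siderophore-binding protein and is named although it lies outside the naming rule, was the other that fell, and its call was lost without any single array other than Rb intact 1 (limma adjusted p = 0.0737 to 0.107). Il6, a cytokine gene, was the one that rose, by 0.51 ± 0.09 (SE, limma adjusted p = 0.0127). Mmp3, the brightest of the list, differed by -0.11 ± 0.08 (SE, limma adjusted p = 0.402), and Tnf and Ccl20 were at background on all arrays. With the slide as a block only Saa3 was still called (-0.66, limma adjusted p = 0.0323), and within the first slide it was not (limma adjusted p = 0.124). Leaving out Rb deleted 2 or Rb deleted 3 ended the call of Il6 (limma adjusted p = 0.0616 and 0.0598), and leaving out any Rb deleted array ended that of Cxcl1 (limma adjusted p = 0.0739 to 0.0908).

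Of 4 other alarmins, 2 were tested and 1 fell. S100a8, which encodes a calcium-binding protein of neutrophils and stressed epithelium, read -2.25, -2.33 and -2.50 in Rb deleted cultures, against -0.48, -0.72 and -0.53 in Rb intact cultures. It fell by 1.78 ± 0.10 (SE, limma adjusted p = 0.000279), to 29.0% of the intact level, and was called within the first slide as well (-1.67, limma adjusted p = 0.0339). Hmgb1, a chromatin protein that acts as an alarmin once outside the cell, differed by 0.09 ± 0.08 (SE, limma adjusted p = 0.454). Il25 and S100a9 were not well above background on any array.

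**Figure D4:**
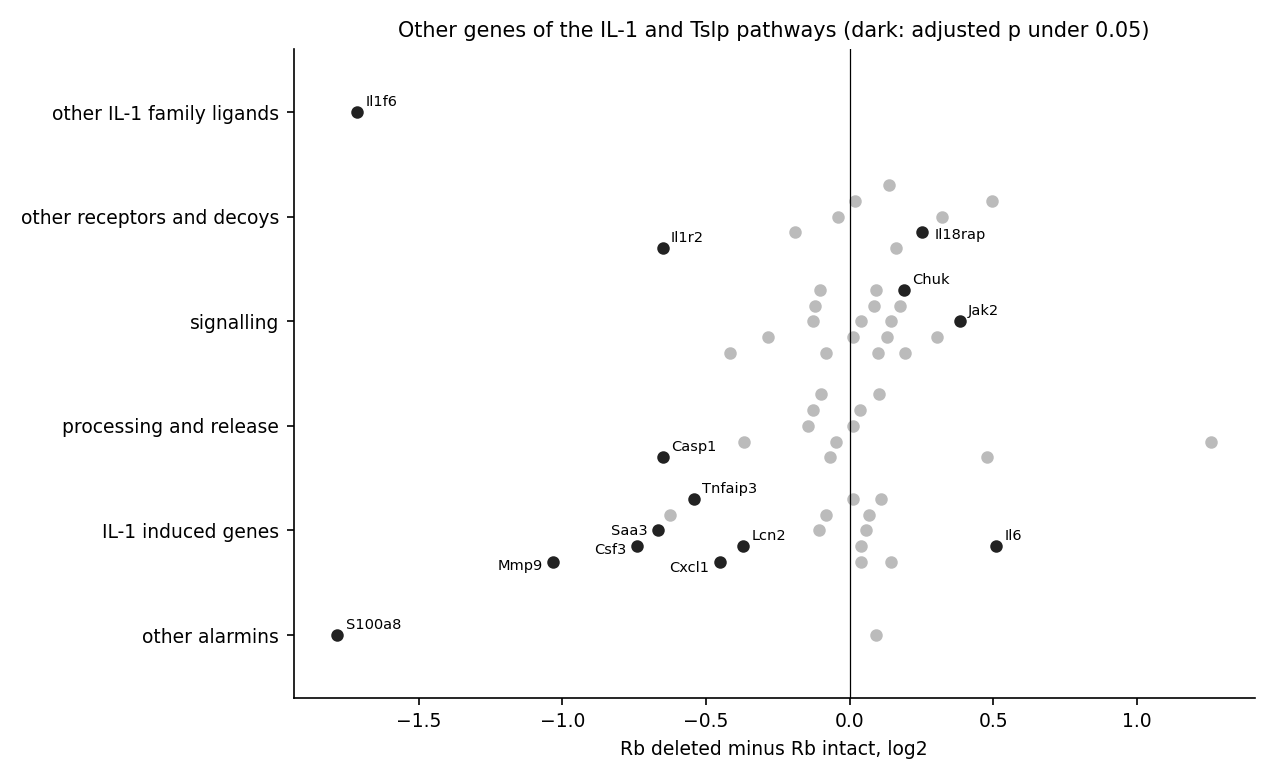
Difference, Rb deleted minus Rb intact in log2 units, of each of the 59 tested pathway genes by list, spread vertically for legibility; dark points with names have a limma adjusted p under 0.05. The 10 dark points on the left include S100a8 at -1.78, Il1f6 at -1.71 and Mmp9 at -1.03, and the 4 on the right reach 0.51 for Il6.

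The genes whose profile over the 6 arrays lay nearest to that of Tslp were Phf11b, Il11, Cyb5r2, Lck and Gbp5, with root mean square differences of 0.0438, 0.0615, 0.0696, 0.0709 and 0.0718 log2 units after centring each gene. Il11, a cytokine of the IL-6 family, read -0.71, -0.55 and -0.51 in Rb deleted cultures, against -1.63, -1.68 and -1.60 in Rb intact cultures. Lck is a kinase of T cells and Gbp5 an interferon-induced GTPase. The 5 had differences of 1.03 to 1.13, which their choice by likeness to Tslp sets, and Cyb5r2 was well above background on 1 of 3 Rb intact arrays.

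Tslp kept its direction under each of 19 other settings of normalization, filter, probe choice, variance model, block and left-out array, with differences of 1.02 to 1.28. Outside the fit within the first slide, the limma adjusted p was 3.39e-05 to 0.00916. The settings were not all separate checks. Tslp has 1 probe, well above background on all 6 arrays, so the filter and probe settings could not change its difference of 1.16. The slide block and the fit within the first slide gave the same difference, 1.02. Il33 kept its direction in all 19, at -0.58 to -0.42, and its call in 17.

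**Figure D5:**
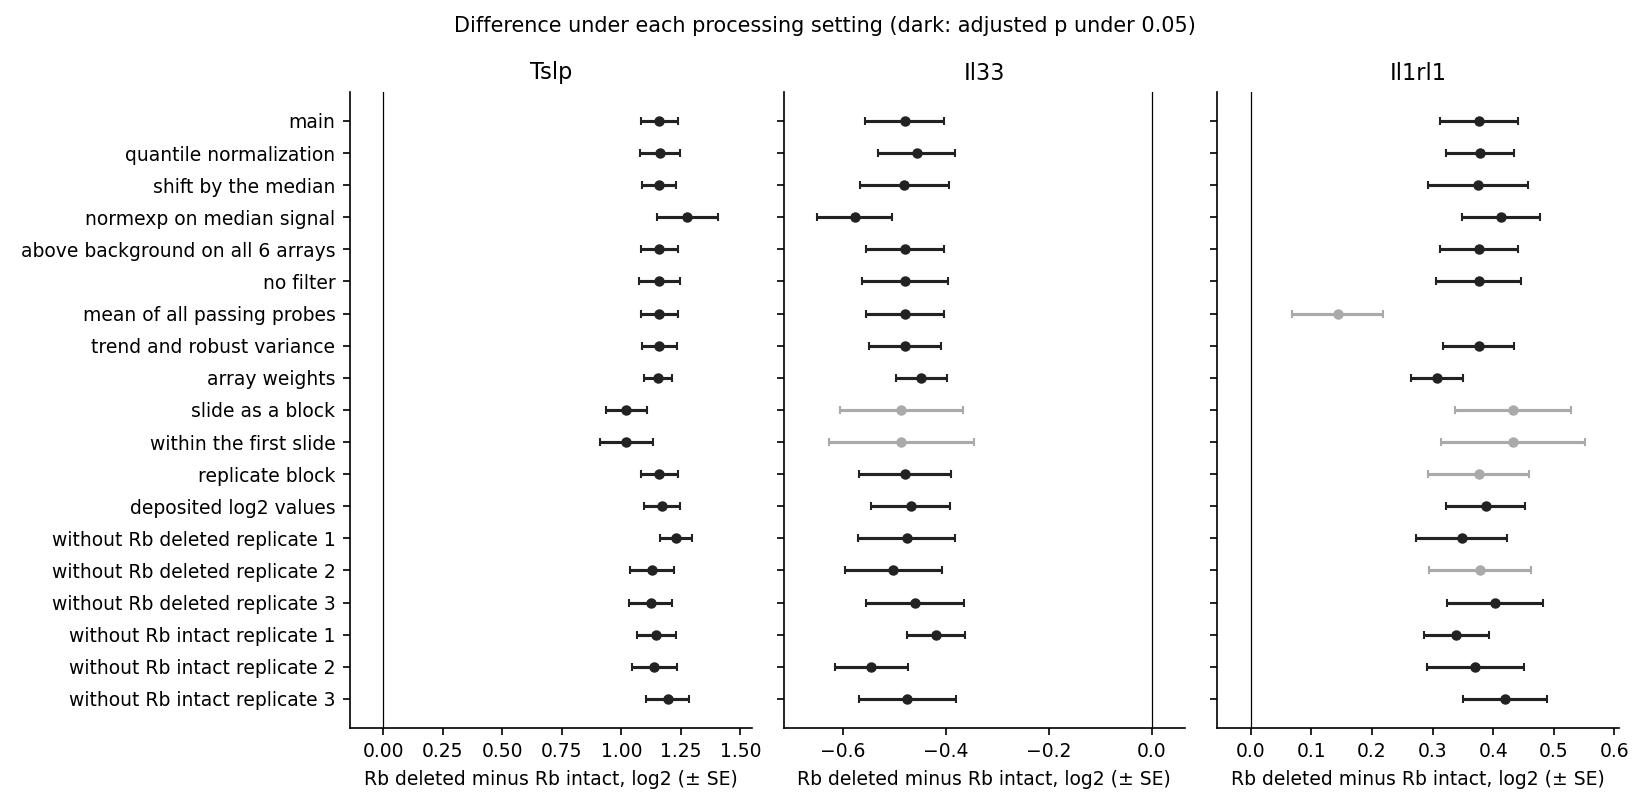
Difference of Tslp, Il33 and Il1rl1, Rb deleted minus Rb intact in log2 units with the SE, under each processing setting; dark points have a limma adjusted p under 0.05. Tslp is dark throughout, from 1.02 to 1.28, and Il33 is grey in the 2 settings that take the slide into account.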

How the data were processed

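Total RNA of 6 cultures was labelled with Cy3 and hybridised to 1-colour Agilent arrays. The deposited scanner files hold, per the file headers, processed spot intensity and median signal from Agilent Feature Extraction 11.0.1.1, which subtracts background, and flags for spots well above background, saturated or outlying. Version 10.7.3.1 is the one in the submitters' processing notes. A table of log2 values deposited by the authors matched log2 intensity minus a constant on each array, within 0.01, for 100% of 22164 probes, with column medians of -0.522 to -0.492. Neither the genome build nor the scaling constant is given in the sources used here.

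Without control spots there were 43020 spots per array, and outlier spots were then left out array by array. Log2 processed intensity was shifted by each array's 75th percentile, and spots were averaged to 39429 probes. A probe passed if well above background on all 3 arrays of a group (23018 probes). Probes were named through their RefSeq accession (27427 named, 20832 genes, 12002 unnamed), and a gene was read by its brightest passing probe. limma 3.58.1 (R 4.3.3) compared the groups over 13716 genes with Benjamini-Hochberg adjustment, and the steps were tested on simulated data. The number of arrays limits the precision. A bound for a gene at background in a group is the mean over all arrays of the bright group against, per array, the higher of the lowest signal well above background and the probe's own.

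The members, lists and tests were chosen with earlier results of these data known. Genes named are the members, up to 6 called genes by p and the brightest gene of each pathway list, the brightest of each marker list, Rb1 and the 5 profiles nearest to Tslp. Markers named besides were taken to show what was at background, called or not called, after their values were seen. The planned comparisons of Il1rn minus Il1a and of Il1rn minus Il1b were not computed since none of these genes was above background. The normexp alternative used median spot signal because no mean signal was among the columns used. Same-numbered cultures did not deviate together (correlations of -0.03, -0.05 and 0.02), so the replicate number was not used to pair them. With so few cultures in a group, such correlations cannot exclude a pairing.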

Additional observations from a re-analysis of the deposited data

How the results depend on the processing

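Of 136 results of member genes under other settings, 120 kept their direction and their side of the threshold, 8 lost a call, 7 gained one and 1 reversed. The reversal was Il1rl1 read from A_55_P2027737 (-0.0272), the brighter probe of the membrane transcript. The filter and probe settings could not change the difference of a member with 1 probe, and the slide block and the first-slide fit gave the same difference for each member. Called genes over the whole array numbered 2779, and 1490 with no filter, 6864 with array weights, 672 with the slide as a block, 154 within the first slide and 1640 with the replicate block. Leaving out single arrays gave 1234 to 5105: 1800, 1236 and 1234 without Rb deleted 1, 2 and 3, and 5105, 1736 and 1662 without Rb intact 1, 2 and 3. The share of calls that were higher was 46.7%, but 28.3% with the slide block, 16.9% within the first slide, and 35.4% and 36.1% without Rb deleted 2 and 3. Members called higher were 1 in place of 2 with the mean of all passing probes, the slide block, the first slide and the replicate block, and 1 to 2 with an array left out (1 without Rb deleted 2); Il1rl1 was the one lost each time, with the replicate block at an adjusted p of 0.0543. Members called lower were 2 with the mean of probes (Il1rap joining, adjusted p = 0.0409), 4 with array weights, 0 with the slide block and within the first slide in limma (2 at an unadjusted p under 0.05), and 1 to 4 with an array left out (4 without Rb intact 1, which added Il18, Il1r1 and Il1rap). Rb deleted has 1 array on the first slide, and the cause of each lost call was not tested. Whether the replicate numbers pair the cultures is not known, and the block on them moved no other member's call. The Il1rl1 probe difference was 0.34 to 0.45 over 10 settings, with adjusted p of 0.0541 to 0.998. The median difference of all genes lay between -0.00933 and 0.0241 over these settings. Low signal limits Il1a, Il1b and Il1rn, which were dim on every array.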

Other observations

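The protein-coding neighbours of the tested members, 2 on either side by the RefSeq order, were looked at after the members' values were known. Of 25 neighbours 16 were tested; 4 rose, 2 fell and 10 were not called, beside 9.46% of all tested genes called higher and 10.8% called lower. All 3 tested neighbours of Tslp rose. Gypc, which encodes the red cell membrane protein glycophorin C, read 4.06, 4.10 and 4.09 in Rb deleted cultures, against 3.64, 3.83 and 3.87 in Rb intact cultures, a difference of 0.31 ± 0.07 (SE, limma adjusted p = 0.0344). Wdr36, a ribosome biogenesis gene, read 2.02, 2.09 and 2.12 in Rb deleted cultures, against 1.64, 1.63 and 1.63 in Rb intact cultures, a difference of 0.44 ± 0.05 (SE, limma adjusted p = 0.00297). Camk4, a calcium-dependent kinase gene, read -4.43, -3.52 and -4.23 in Rb deleted cultures, against -5.24, -5.27 and -4.88 in Rb intact cultures, a difference of 1.07 ± 0.24 (SE, limma adjusted p = 0.0284). None of these 3 calls held with the slide as a block, where the differences were 0.28, 0.39 and 0.70 (limma adjusted p = 0.262, 0.0571 and 0.289), and those of Gypc and Camk4 were also lost without single arrays (Gypc without Rb deleted 1, 2 or 3 or Rb intact 2, Camk4 without Rb deleted 3 or Rb intact 2).

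Around the other members, Acsl6, a fatty acid activating enzyme gene near Csf2, fell by 0.80 ± 0.08 (SE, limma adjusted p = 0.00178). The cluster on chromosome 1 held Il1r2, which fell, Il1rl1, which rose at 1 of 3 probes, and Il18rap, which rose. It also held Il1r1 and the dim Il1rl2, which were not called, and Il18r1, which was not tested. The calls of Il1r2, Il1rl1 and Il18rap were lost with the slide as a block (limma adjusted p = 0.0973, 0.0771 and 0.222).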
